A study of Homo sapiens with 6 samples.

Results

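PAX2, PAX8, LHX1, WT1, SIX2, EYA1, SALL1 and GATA3 are genes of early kidney development, and they were picked by symbol from a table of 18164 human genes measured in HEK293 cells. Of these 8 genes, 7 had values and are described here, and PAX8 was not analysed here. HEK293 is an established line derived from human embryonic kidney cultures and transformed with adenovirus DNA. A commercial suspension line was used, and nothing in the labels says whether it is a single clone. The transfected group (3 libraries) received a pair of plasmids with a polymer reagent, which sets the cells to assemble adeno-associated virus (AAV), and was harvested at 18 h. The untransfected group (3 libraries) received PBS without plasmid or reagent and was harvested at the same time, so effects of plasmids, reagent and virus production cannot be told apart. Both groups share the same line, and no other genotype or agent is named. The labels number the replicates without saying that they were separate cultures, so the p-values below rest on differences between libraries whose origin may be technical.

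These factors act in sequence in the embryo. PAX2 and PAX8 are paired-domain factors that specify the nephric lineage, and LHX1 and GATA3 act in the nephric duct that grows out from it. EYA1 is a phosphatase that serves as coactivator of SIX2 and several of its relatives. It acts with SIX2, SALL1 and WT1 in the metanephric mesenchyme. There SIX2 keeps nephron progenitors undifferentiated, and WT1 later persists in podocytes.

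The RefSeq promoter table (GRCh38.p14) held windows for 5 of the 8 genes, namely PAX2, PAX8, WT1, SIX2 and GATA3. The 250 bases before the start of SIX2 and before the first start of GATA3 are shown because, among genes with a window, these had the lowest and the highest log2 change after transfection. Capitals mark matches, on either strand, to 5 short motifs. The motif of EGR and WT1 zinc fingers was searched as GCGNGGGCG, that of GATA factors as AGATAA and that of AP-1 as TGANTCA. The motif of CREB and ATF factors was searched as TGACGTCA, and the CCAAT box by the letters of its name. The SIX2 window lies at chr2:45009453-45009702 on the minus strand and the GATA3 window at chr10:8045083-8045332 on the plus strand, each read 5′ to 3′ towards the gene.
SIX2: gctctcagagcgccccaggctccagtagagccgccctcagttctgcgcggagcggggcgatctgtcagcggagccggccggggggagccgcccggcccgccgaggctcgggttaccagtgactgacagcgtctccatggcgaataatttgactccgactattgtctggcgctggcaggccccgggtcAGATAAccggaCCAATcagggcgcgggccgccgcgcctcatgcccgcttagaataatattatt
GATA3: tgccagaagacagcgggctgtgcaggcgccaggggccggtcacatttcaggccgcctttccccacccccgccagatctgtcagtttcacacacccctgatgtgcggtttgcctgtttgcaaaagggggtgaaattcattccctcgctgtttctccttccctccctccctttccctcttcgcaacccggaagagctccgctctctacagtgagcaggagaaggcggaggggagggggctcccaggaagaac
The SIX2 window held 1 AGATAA and 1 CCAAT, which do not overlap, and 26 CpG dinucleotides. The GATA3 window shown held 0 matches and 11 CpG. Of 35116 such windows in the table, 9.2% held AGATAA, 32.0% CCAAT, 8.4% GCGNGGGCG, 6.6% TGANTCA and 1.6% TGACGTCA. GATA3 has 6 starts in that table, and values per gene do not say which start was used. Windows of other GATA3 starts did hold matches. That of the start at 8053641 held 1 GCGNGGGCG, 2 CCAAT and 30 CpG. The window at 8049854 held 1 CCAAT and that at 8060457 held 1 TGANTCA, with 16 and 4 CpG. Those at 8051236 and 8054688 held 0 matches, with 15 and 26 CpG.

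Expression is given in TPM, an abundance per library total, corrected for gene length that can be compared between genes. In untransfected cells GATA3 was the most abundant of the 7 genes at 34.9 ± 4.62 TPM (mean ± SD, n = 3 here and below), above 80.6% of all listed genes by its mean over the 6 libraries. SALL1 followed at 24.6 ± 1.36 TPM, EYA1 at 7.78 ± 0.222, SIX2 at 7.26 ± 1.44, PAX2 at 4.64 ± 0.710, WT1 at 3.16 ± 0.225 and LHX1 at 0.390 ± 0.0529 TPM. Neighbours in this order did not overlap in their 3 values, except EYA1 and SIX2. In transfected cells the order was the same, and the overlapping neighbours were SIX2 and PAX2, while EYA1 stood clear of SIX2. In bulk RNA, fewer cells expressing a gene and less RNA per cell cannot be told apart.

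**Figure D1:**
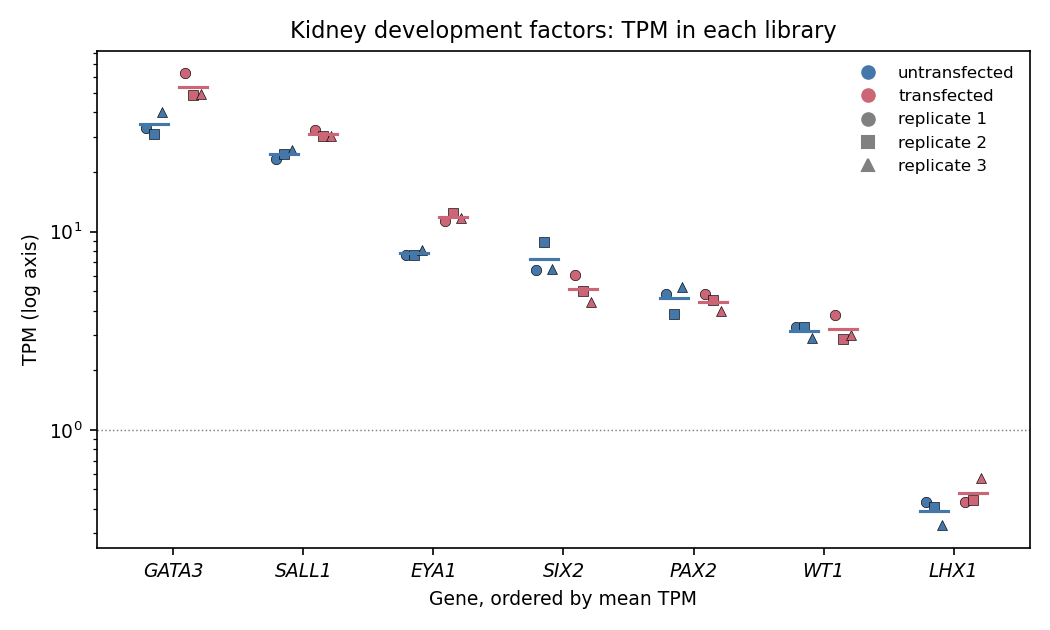
TPM of each of the 7 genes (log axis) in every library, untransfected in blue and transfected in red, with marker shapes for replicates, bars for group means and a dotted line at 1 TPM. GATA3, EYA1 and SALL1 have all 3 transfected values above all 3 untransfected values, SIX2 has them all below, and PAX2, WT1 and LHX1 overlap or touch.

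The study set cells making AAV against cells that were not, to see how host expression differs. GATA3, EYA1 and SALL1 rose by 1.54-fold, 1.53-fold and 1.26-fold in mean TPM. SIX2 went the other way, with mean TPM 0.711 times that of untransfected cells, but did not pass the test on the deposited values. PAX2 and WT1 did not pass, and LHX1 was too low to test. A gene was tested if it had at least 1 TPM in at least 3 libraries, which 16145 genes did, and it passed if limma gave an adjusted p below 0.05 on log2(TPM + 1), a scale that understates changes of low genes. Of the 6 genes tested 3 were higher and 0 lower by limma, and at an unadjusted p under 0.05 these counts were 3 and 1. Over all tested genes 20% were called higher and 10.2% lower, together 30.2%. The median log2 fold was 0.171 for the 6 genes and 0.05 over all tested genes.

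GATA3 is a zinc finger factor of the nephric duct (ENSG00000107485, GRCh38 chromosome 10, 8045378 to 8075203, plus strand). It stood at 62.95, 48.99 and 49.69 TPM in transfected replicates 1 to 3 and at 33.51, 31.18 and 40.09 TPM in untransfected replicates 1 to 3. All transfected values were above all untransfected ones, and the highest library of each group was transfected replicate 1 and untransfected replicate 3. The log2 fold was 0.61 (SE 0.121, 95% interval 0.33 to 0.89, limma adjusted p = 0.00768). Those same libraries had the highest share of TPM from mitochondrially encoded genes in their group, 31.6% against 29% and 28.4% in transfected and 37.6% against 32.4% and 31.3% in untransfected libraries. With both left out the log2 fold of GATA3 was 0.60 (SE 0.052, limma adjusted p = 0.000919). Because this removed the highest GATA3 value of each group, the spread within groups narrowed, and the smaller p adds no support. The antisense gene GATA3-AS1 overlaps it and the strand setting of the counting is not given. Reads of that transcript, not analysed here, cannot be told apart from those of GATA3. The lincRNA gene AL390294.1 overlaps GATA3 on the same strand and was not analysed here either.

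EYA1 encodes the coactivator phosphatase that partners SIX2 and several of its relatives (ENSG00000104313, chromosome 8, 71197433 to 71592025, minus strand). Its values were 11.37, 12.48 and 11.79 TPM in transfected replicates 1 to 3 and 7.65, 7.66 and 8.04 TPM in untransfected replicates 1 to 3. The groups were well apart and each was tight. The log2 fold was 0.55 (SE 0.075, 95% interval 0.38 to 0.72, limma adjusted p = 0.00172), and under 16 alternative settings it ranged from 0.40 to 0.60 with an adjusted p of at most 0.0117. Annotation places 2 genes on the opposite strand and 1 pseudogene on the same strand within EYA1, none of them analysed here.

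SALL1, a zinc finger factor of the metanephric mesenchyme that recruits the NuRD repressor complex (ENSG00000103449, chromosome 16, 51135975 to 51151367, minus strand), had 32.47, 30.28 and 30.31 TPM in transfected replicates 1 to 3 and 23.18, 24.58 and 25.90 TPM in untransfected replicates 1 to 3. All transfected libraries were above all untransfected ones. The log2 fold was 0.33 (SE 0.067, 95% interval 0.17 to 0.48, limma adjusted p = 0.00904). The call was lost on totals computed without mitochondrial and the top 20 genes by abundance (log2 fold 0.24, limma adjusted p = 0.0602). Of 2 genes that overlap SALL1 on the opposite strand, AC087564.1 had 0.24, 0.39 and 0.28 TPM in transfected replicates 1 to 3. In untransfected replicates 1 to 3 AC087564.1 had 0.20, 0.13 and 0.11 TPM, so its groups did not overlap, with transfected values higher. It was below the filter of 1 TPM and was not tested.

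SIX2 is the homeodomain factor of nephron progenitors (ENSG00000170577, chromosome 2, 45005161 to 45009430, minus strand). Its values were 6.05, 5.02 and 4.42 TPM in transfected replicates 1 to 3 and 6.40, 8.92 and 6.47 TPM in untransfected replicates 1 to 3. All transfected values lay below all untransfected ones, and untransfected replicate 2 stood above the others. The log2 fold was -0.42 (SE 0.146, 95% interval -0.75 to -0.08) with a limma adjusted p of 0.0624. It passed in limma after median-ratio scaling (adjusted p = 0.0365), after quantile normalization (0.0422), on totals lacking mitochondrial and the top 20 genes (0.0297), without transfected replicate 1 (0.0416), and without both transfected replicate 1 and untransfected replicate 3 (0.0294). Over 16 alternatives the adjusted p ranged from 0.0294 to 0.189, and the log2 fold stayed below 0 in each, between -0.58 and -0.27. Without untransfected replicate 2 the log2 fold was -0.28 (limma adjusted p = 0.162).

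EYA1 and SIX2, whose proteins work as a complex, thus differed in direction on the deposited values. Because a ratio of TPM values within a library does not depend on how the library was scaled, their ratio was taken, a choice made after the values were seen. The TPM of EYA1 was 1.88, 2.49 and 2.67 times that of SIX2 in transfected replicates 1 to 3 and 1.195, 0.859 and 1.24 times in untransfected replicates 1 to 3. All transfected ratios were above all untransfected ones. The mean log2 ratio was 1.21 ± 0.267 (SD, n = 3) in transfected and 0.117 ± 0.293 in untransfected libraries, a difference of 1.10. Because the pair was chosen for its opposite directions, the ratios had to separate, and the difference is a description without a test. The difference was 0.93 to 1.25 with single libraries left out.

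PAX2 (ENSG00000075891, chromosome 10, 100735603 to 100829941, plus strand) had 4.83, 4.51 and 3.97 TPM in transfected replicates 1 to 3 and 4.83, 3.85 and 5.23 TPM in untransfected replicates 1 to 3. The groups overlapped, with a log2 fold of -0.05 (SE 0.121, 95% interval -0.32 to 0.23, limma adjusted p = 0.798). WT1 (ENSG00000184937, chromosome 11, 32387775 to 32435630, minus strand) had 3.78, 2.88 and 3.00 TPM in transfected replicates 1 to 3 and 3.29, 3.29 and 2.90 TPM in untransfected replicates 1 to 3. Transfected replicate 1 was the highest and replicate 2 the lowest of the 6, and the log2 fold was 0.02 (SE 0.114, 95% interval -0.25 to 0.28, limma adjusted p = 0.929). WT1-AS, which runs from the same promoter region on the opposite strand, was at 0.28 to 0.46 TPM after transfection and 0.19 to 0.38 TPM in untransfected libraries. LHX1, a LIM homeodomain factor (ENSG00000273706, chromosome 17, 36936785 to 36944612, plus strand), had 0.43, 0.44 and 0.57 TPM in transfected replicates 1 to 3 and 0.43, 0.41 and 0.33 TPM in untransfected replicates 1 to 3. Its groups touched at 0.43 TPM.

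Of the 6 tested genes 4 had groups that did not overlap, 3 with all transfected values higher and 1 with all lower. Over all tested genes 46.5% did not overlap, 29.2% with all transfected values higher and 17.3% with all lower.

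**Figure D2:**
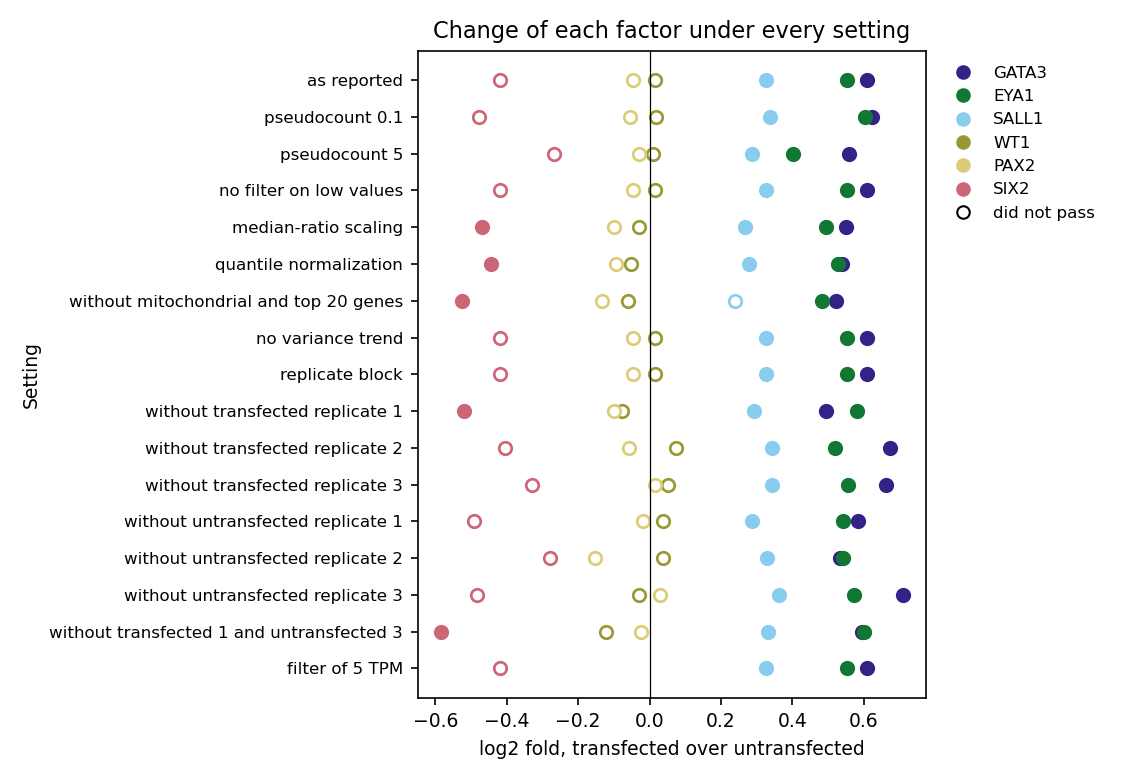
The log2 fold of each of the 6 tested genes (x axis) as reported and under every alternative setting (rows); filled points passed (limma adjusted p below 0.05) and open points did not. GATA3 and EYA1 stay filled throughout, SALL1 is open in 1 row, SIX2 is filled in 5, and PAX2 and WT1 lie around 0; both lack a point under the filter of 5 TPM.

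The relatives of these genes show how far each pattern was shared within its family. Of 34 paralogues in the families of PAX2, SIX2, EYA1, SALL1, LHX1 (LIM homeobox) and GATA3, 27 were listed and 25 tested. Of those 25, 9 rose and 0 fell by limma (10 and 0 at an unadjusted p under 0.05), against 20% and 10.2% of all tested genes. The median log2 fold was 0.091. The count of rising paralogues changed with the libraries and model used. It was 2 without transfected replicate 2, 1 without transfected replicate 3, 4 without untransfected replicate 1 and 4 with the replicate block. Over all tested genes the count of rising genes also went from 3236 to 1820, 1873, 2434 and 2392 in these settings. It was 7 for the paralogues without transfected replicate 1 or untransfected replicate 2, and 9 without untransfected replicate 3. Under the other scalings 5 to 7 rose and 0 to 1 fell, where totals lacking mitochondrial and the top 20 genes let further genes pass the filter.

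All 4 EYA genes rose on the deposited values. EYA3 went from 48.8 ± 3.10 to 59.7 ± 2.45 TPM (log2 fold 0.29, limma adjusted p = 0.0143), EYA4 from 18.1 ± 1.04 to 22.1 ± 1.22 TPM (0.28, 0.0244) and EYA2 from 10.9 ± 0.577 to 13.2 ± 0.349 TPM (0.25, 0.0335). EYA1 had the largest log2 fold of the 4; whether it exceeded the others was not tested. EYA2 lost its call under all 3 other scalings (limma adjusted p of 0.0636 to 0.162), with the replicate block (0.0872) and without any single library except untransfected replicate 3 (0.0727 to 0.103). EYA3 and EYA4 lost theirs without transfected replicate 2 (0.0632 and 0.0924) or transfected replicate 3 (0.0572 and 0.0848). EYA4 also lost its call without untransfected replicate 1 (0.0595) and with the replicate block (0.0625). All EYA transcripts together came to 102.9, 110.6 and 107.0 TPM in transfected replicates 1 to 3. In untransfected replicates 1 to 3 they came to 88.8, 86.2 and 81.6 TPM, so the groups did not overlap. The separation was not particular to EYA genes. Summed TPM of the families of PAX2, SIX2, SALL1, LHX1 and GATA3 also had all transfected values above all untransfected ones. The sum for the SIX2 family, SIX2 included, ranged from 81.05 to 82.47 TPM after transfection and from 72.72 to 79.32 TPM without it.

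The relatives of SIX2 are homeodomain factors that bind DNA, and several of them recruit EYA coactivators. SIX4 rose on the deposited values, from 19.0 ± 1.68 to 24.8 ± 2.06 TPM (log2 fold 0.37, limma adjusted p = 0.0177). That call was lost without transfected replicate 2 (0.0699) or transfected replicate 3 (0.0734). SIX5 had 18.4 ± 2.45 and 20.8 ± 1.11 TPM and SIX3 had 2.44 ± 0.804 and 1.53 ± 0.454 TPM after and without transfection, both with overlapping groups. Neither SIX3, SIX4 nor SIX5 had all transfected values below all untransfected ones, as SIX2 did.

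Among PAX genes PAX3, a factor of neural crest and muscle precursors, rose from 6.93 ± 0.399 to 10.6 ± 0.639 TPM (log2 fold 0.54, limma adjusted p = 0.00273). PAX6, a factor of eye and brain development, rose from 8.47 ± 0.448 to 10.7 ± 0.265 TPM (0.31, 0.0175), but not without transfected replicate 2 (adjusted p = 0.0665), without transfected replicate 3 (0.0633) or with the replicate block (0.0578). PAX7 and PAX9 did not pass, at 4.13 ± 0.190 and 7.04 ± 0.200 TPM after transfection and 4.57 ± 0.425 and 6.90 ± 0.185 TPM in untransfected cells. PAX2 was thus of the same order of abundance as PAX7 and below PAX3, PAX6 and PAX9 in both groups. PAX1 and PAX5 were below the filter.

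SALL4, a stem cell zinc finger factor, rose from 6.40 ± 0.388 to 8.13 ± 0.237 TPM (log2 fold 0.30, limma adjusted p = 0.0249), close in size to SALL1, but lost its call after median-ratio scaling (0.0531), on totals lacking mitochondrial and the top 20 genes (0.0814), with the replicate block (0.0635) and without any of transfected replicates 2 and 3 and untransfected replicates 1 and 2 (0.0505 to 0.0930). SALL2, the most abundant of the family at 58.9 ± 1.42 TPM after transfection and 60.4 ± 1.06 TPM in untransfected cells, did not pass (log2 fold -0.04, limma adjusted p = 0.650). Among GATA genes GATA6, an endodermal and cardiac factor, rose from 32.6 ± 0.472 to 37.8 ± 0.956 TPM (0.21, 0.0254), and the call was lost under all 3 other scalings (0.0666 to 0.129), with the replicate block (0.102) and without any single library except untransfected replicate 3 (0.0566 to 0.0950). GATA2 and GATA4 were at 16.1 ± 1.09 and 21.0 ± 1.46 TPM after transfection and 16.4 ± 0.379 and 20.2 ± 0.673 TPM in untransfected cells and did not pass. Of 8 LIM homeobox genes tested ISL2, a motor neuron factor, rose from 22.2 ± 2.81 to 30.2 ± 2.68 TPM (0.43, 0.0160). It did not pass after median-ratio scaling (0.0565), on totals lacking mitochondrial and the top 20 genes (0.0689), without transfected replicate 3 (0.0556) or without untransfected replicate 1 (0.0511). LHX2, at 19.6 ± 2.83 and 17.6 ± 0.793 TPM after and without transfection, was far more abundant than LHX1 and did not pass.

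**Figure D3:**
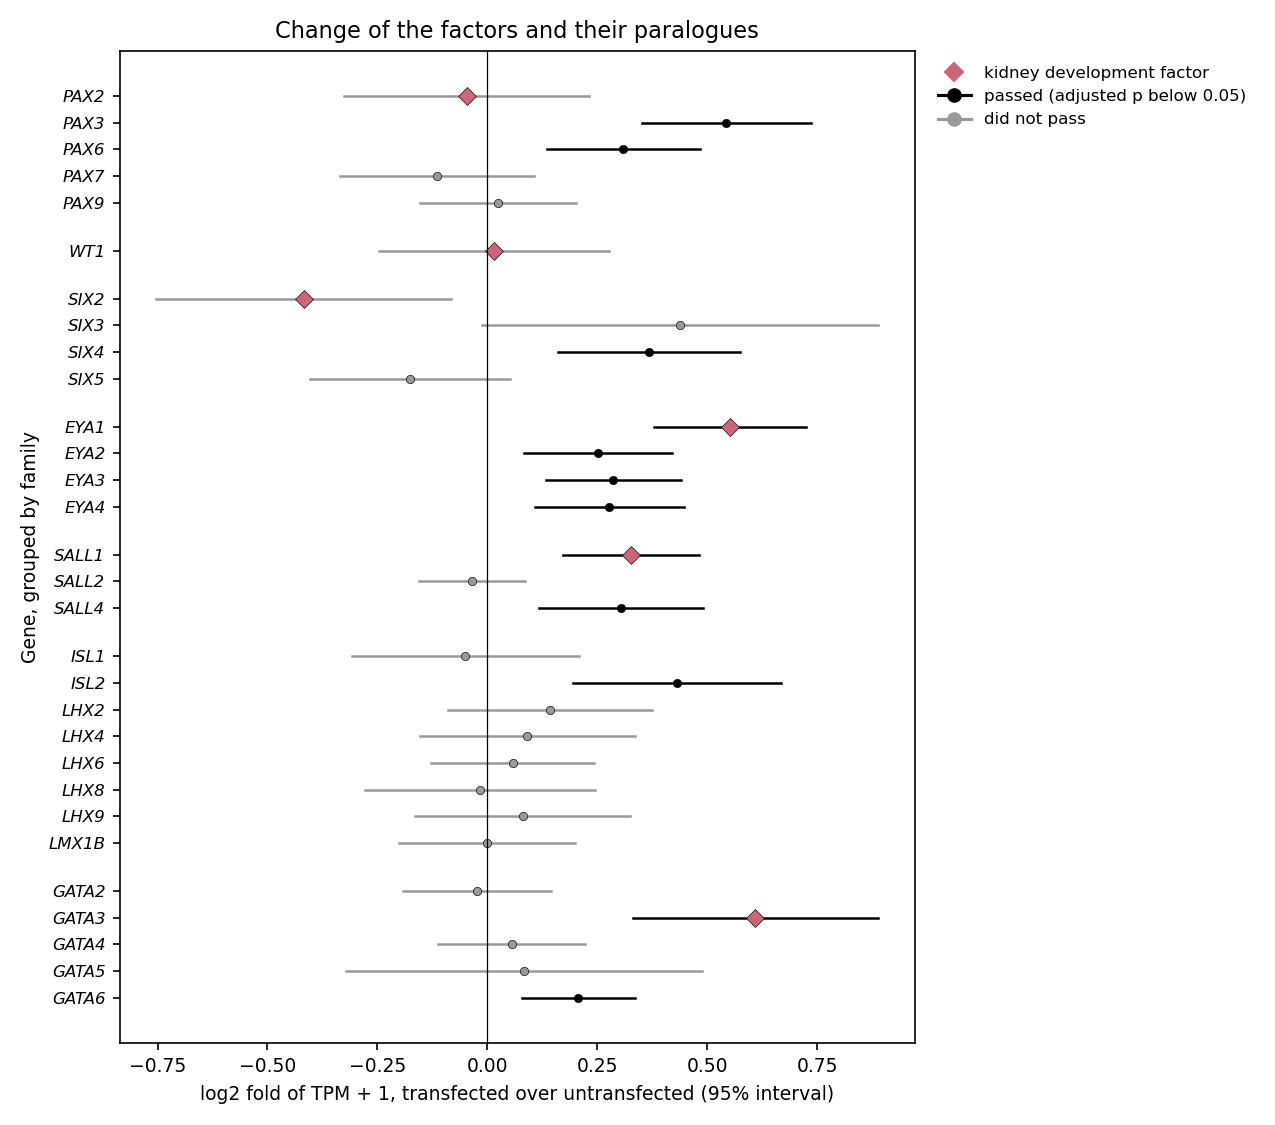
The log2 fold with its 95% interval (x axis) for the 6 tested kidney development genes (red diamonds) and tested paralogues named in the text or of the same families (circles), grouped by family; black marks genes that passed and grey those that did not. The 4 EYA intervals all lie above 0, while SIX2 lies at -0.42 and SIX3 at 0.44, and neither SIX2 nor SIX3 passed. The SIX3 interval includes 0 (-0.01 to 0.89). Intervals are not adjusted for the number of genes tested, so that of SIX2 excludes 0.

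Proteins that work with these factors were listed by textbook knowledge: the KMT2D histone methylation complex reached through PAXIP1, TLE corepressors, LDB and SSBP partners of LIM factors, the WT1 cosuppressor BASP1, FOG partners of GATA factors, DACH partners of SIX2 and EYA1, and NuRD subunits bound by SALL1. Of 32 such genes 30 were tested, and 9 rose and 1 fell, against 20% and 10.2% of all tested genes, with a median log2 fold of 0.106. The scalings gave 5 to 7 rising and 1 to 4 falling, and 5 rose without transfected replicate 3 or with the replicate block. KDM6A, the demethylase in the KMT2D complex, rose from 11.04 ± 0.780 to 16.0 ± 0.633 TPM (log2 fold 0.50, limma adjusted p = 0.00287). RLIM, a ubiquitin ligase that targets the LIM cofactor LDB1, rose from 58.5 ± 5.45 to 82.7 ± 5.32 TPM (0.49, 0.00385). BASP1 rose from 281.1 ± 8.37 to 367.9 ± 7.10 TPM (0.39, 0.00160). SSBP4, of the single-stranded DNA-binding partners of LDB1, fell from 28.0 ± 1.79 to 21.6 ± 1.48 TPM (-0.36, 0.0102).

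The other transcription factors of the developing kidney numbered 48, of which 35 were tested. Of those, 11 rose and 1 fell, against 20% and 10.2% of all tested genes, with a median log2 fold of 0.184. The count of rising factors dropped to 3 without transfected replicate 2 or 3, to 6 without transfected replicate 1 or untransfected replicate 2, and to 7 without untransfected replicate 1 or with the replicate block. The count of falling factors was 0 without transfected replicate 2 or 3 or untransfected replicate 1. Under the scalings 6 to 10 rose and 4 to 6 fell. CITED2, a coactivator that binds CBP and p300, rose from 68.5 ± 0.942 to 91.1 ± 4.59 TPM (log2 fold 0.41, limma adjusted p = 0.00195). MECOM, a zinc finger factor of the distal nephron, rose from 10.4 ± 0.932 to 14.2 ± 1.25 TPM (0.41, 0.0134). SIM1, expressed in mesonephric and nephron tubules, rose from 5.17 ± 0.710 to 7.41 ± 0.720 TPM (0.45, 0.0190). ETV5, an ETS factor downstream of RET in the ureteric bud, fell from 3.26 ± 0.321 to 2.12 ± 0.136 TPM (-0.45, 0.0140). The MECOM call was lost without transfected replicate 2 (0.0550). SIM1 and ETV5 lost theirs without transfected replicate 2 (0.0756 and 0.0551) or transfected replicate 3 (0.0509 and 0.0546), SIM1 without untransfected replicate 2 (0.0514) and ETV5 without untransfected replicate 1 (0.0568).

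Signals and receptors of ureteric bud growth and nephron induction were called in both directions, at shares near or below those over all tested genes. Of 46 genes 36 were tested, and 5 rose and 4 fell, against 20% and 10.2% of all tested genes. Only 3 rose without transfected replicate 2 or 3 or untransfected replicate 1 or 3, 2 rose with the replicate block, and 2 fell without transfected replicate 3. The median log2 fold was 0.024, which was below 0 under all 3 other scalings (-0.065 to -0.010). Those scalings gave 2 to 5 rising and 6 to 10 falling. SLIT2, the guidance ligand that restricts ureteric budding, fell from 161.6 ± 4.30 to 117.6 ± 5.17 TPM (log2 fold -0.46, limma adjusted p = 0.00116). GDF11, a TGF-beta family ligand of the metanephric mesenchyme, fell from 25.3 ± 0.350 to 19.3 ± 0.594 TPM (-0.37, 0.00339). FREM2, a basement membrane protein, fell from 9.28 ± 0.431 to 6.88 ± 0.794 TPM (-0.39, 0.0182), but not without transfected replicate 1 (0.0516) or 3 (0.0645) or untransfected replicate 2 (0.0579). RARA, a retinoic acid receptor, rose from 18.9 ± 1.29 to 25.3 ± 1.72 TPM (0.41, 0.00689).

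**Figure D4:**
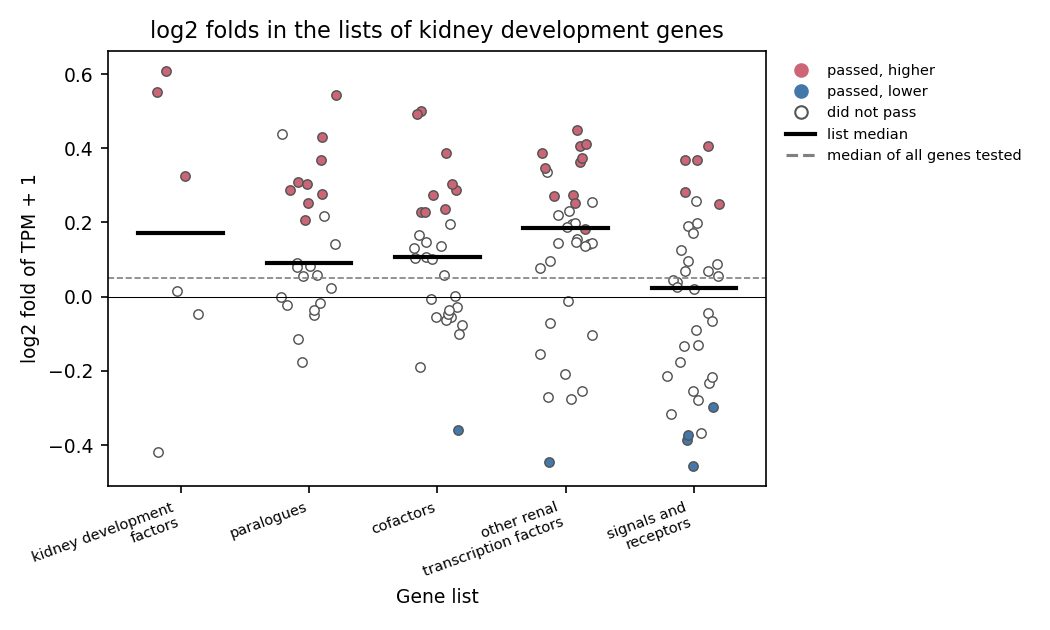
The log2 fold of each tested gene (points) in the 5 lists, with the list median (black bar) and the median of all tested genes (dashed line, 0.05); red and blue points passed as higher and lower. Points above 0 that passed outnumber those below in the first 4 lists, and the signals and receptors hold 5 higher and 4 lower.

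The labelled origin was checked against markers of mature nephron segments. Of 16 proximal, loop and distal tubule markers 10 were not analysed here, among them SLC34A1, UMOD and SLC12A3, and 3 were tested. LRP2, the endocytic receptor megalin, was at 8.01 ± 0.539 TPM after transfection and 8.33 ± 0.519 TPM in untransfected cells. The membrane peptidase gene ANPEP was at 1.73 ± 0.237 and 1.0 ± 0.07 TPM, the 1 tubule marker that rose. It lay near the filter of 1 TPM, with 0.97, 1.08 and 0.95 TPM in untransfected replicates 1 to 3. ANPEP was tested only because of its transfected libraries, where it was higher. Summed TPM of the listed tubule markers ranged from 12.5 to 13.3 after transfection and from 10.8 to 12.2 without it. Of 10 podocyte markers 6 were tested, of which 0 rose and 1 fell (1 and 1 at an unadjusted p under 0.05), and the 2 most abundant were the widely expressed ACTN4 and CD2AP. Of 16 collecting duct markers 6 were tested, of which 0 rose and 1 fell (0 and 1 at an unadjusted p under 0.05), led by the epithelial keratins KRT8 and KRT18, and AQP2 was not analysed here. Among neural markers 4 of 9 tested rose and 1 fell (4 and 2 at an unadjusted p under 0.05). Over all tested genes 20% were called higher and 10.2% lower, the shares to set beside the counts of each marker list. The summed TPM of the neural markers ranged from 234.9 to 244.9 after transfection and from 198.7 to 209.4 without it. The neurofilament gene INA rose from 26.9 ± 1.12 to 51.6 ± 2.19 TPM (log2 fold 0.92, limma adjusted p = 0.000119), SYP from 5.34 ± 0.301 to 8.13 ± 0.584 TPM and NEFM from 11.9 ± 0.612 to 15.9 ± 1.51 TPM, and the progenitor marker NES fell from 37.9 ± 1.94 to 30.9 ± 0.246 TPM. Of 12 adrenal markers 2 were tested; CHGB, a secretory granule protein, rose from 2.85 ± 0.424 to 8.33 ± 0.484 TPM, PNMT fell from 6.33 ± 0.866 to 4.24 ± 0.421 TPM, and NR5A1 and STAR were not analysed here. The summed adrenal markers ranged from 13.1 to 13.2 TPM after transfection and from 8.68 to 10.7 TPM without it. The neural, tubule and adrenal sums were thus higher in the same libraries as GATA3, EYA1 and SALL1, and their part in those changes was not tested. This was not particular to these markers. The sums of the paralogues (442.9 to 446.9 against 393.2 to 399.7 TPM), cofactors and other renal transcription factors separated likewise. The podocyte and collecting duct sums, and that of the signals and receptors, overlapped between the groups.

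Lastly, the genes whose profiles over the 6 libraries lay closest to each risen factor were found by Euclidean distance between centred log2(TPM + 1) values. For EYA1 these were GEMIN6 (distance 0.0502), of the SMN complex that assembles splicing snRNPs, and the phosphatase gene DUSP12 (0.0556). For SALL1 they were the pseudogene PARLP2 (0.0513) and the co-chaperone gene DNAJB2 (0.0610). For GATA3 they were farther, with the pseudogene TPI1P2 at 0.163 and CDC42EP1, a CDC42 effector gene, at 0.166. CDC42EP1 stood at 189.68, 156.89 and 158.57 TPM in transfected replicates 1 to 3 and 112.50, 110.73 and 127.79 TPM in untransfected replicates 1 to 3, with the same highest library in each group as GATA3. With 6 libraries in 2 groups, closeness mostly reflects a like difference between the groups.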

How the data were processed

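Total RNA from 10000000 HEK293 cells per sample was made into stranded TruSeq libraries and read as 75 nt pairs, per the labels' protocols. The deposited values are TPM per gene and library, calculated by the authors; STAR and GRCh38 are named in the submitters' processing notes, and the counting tool, its strand setting and the annotation are not given in the sources available for this work. Over 18164 distinct Ensembl IDs (134 repeated rows were dropped) each library sums to 1000000 within 1. TPM keeps no record of depth, so no counting interval can be given, and a rise of abundant transcripts lowers all other values.

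Genes reaching 1 TPM in 3 or more of the 6 libraries were compared on log2(TPM + 1) with limma 3.58.1 in R 4.3.3 (group as the only term, mean-variance trend, two-sided, Benjamini-Hochberg over all tested genes, threshold 0.05), after the method was tested on simulated data. Symbols came from a name table by Ensembl ID, which matched 18139, and coordinates from GENCODE release 29. Lists were described by counts and medians without a set test. The 8 genes were all to be named. From each list up to 4 genes that passed were named, by size of log2 fold and with at least 2 TPM in the higher group, or the 2 most abundant where fewer than 2 passed; for each of the 8 that passed, the 2 nearest profiles were named. Other paralogues, and genes named as not analysed, were picked after their values were seen. The genes, lists and rules were chosen with earlier results of these data known. A planned ratio of PAX8 to PAX2 could not be computed. Alternatives in scaling, pseudocount, filter, variance trend, replicate block and libraries left out were run. Results for some listed genes are not reported here.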

Additional observations from a re-analysis of the deposited data

How the results depend on the processing

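EYA1 and GATA3 passed in limma under all 16 alternatives run, SALL1 in 15 and SIX2 in 5. SIX2 counted as 1 lower gene of the 8 after median-ratio scaling, after quantile normalization, on totals lacking mitochondrial and the top 20 genes, and without both libraries with the highest mitochondrial share, an alternative chosen after seeing the data. Leaving out single libraries gave 0 to 1 lower genes of the 8. WT1, not called in any setting, turned to -0.0298 after median-ratio scaling, -0.0510 after quantile normalization, -0.0602 on totals lacking mitochondrial and the top 20 genes and -0.123 without both libraries named above, with a range of -0.0771 to 0.0734 over single libraries left out. PAX2 ranged from -0.152 to 0.0289 over single libraries left out.

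Of all tested genes 1644 were lower on the deposited values, 2789 after median-ratio scaling, 2887 after quantile normalization and 3255 on totals lacking mitochondrial and the top 20 genes. The share of called genes that were higher went from 66.3% to 52.5%, 50.3% and 45.8%, and the median log2 fold of all tested genes from 0.0502 to -0.00499, -0.0145 and -0.0332. Single libraries left out gave 1820 to 2955 higher and 965 to 2027 lower, with the fewest without transfected replicate 2 in both directions. Paralogues, cofactors, other renal transcription factors, signals and receptors and antisense partners, the last without a tested gene, made 5 lists that do not hold the 8 genes. Over their 126 distinct tested genes 34 were higher and 6 lower on the deposited values. The lower ones were 11, 19 and 16 under the same 3 scalings, and the higher ones 18 on totals lacking mitochondrial and the top 20 genes, where the filter was applied anew and more genes passed it; single libraries left out gave 12 to 31 higher and 3 to 6 lower, the fewest in both directions without transfected replicate 3.

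With the replicate block 2392 genes were higher and 1137 lower, 18 list genes were higher, and the calls of GATA3, EYA1, SALL1, SIX2, PAX2 and WT1 stayed on their side of the threshold. Same-numbered libraries had correlations of deviations of -0.184, 0.107 and -0.163, and transfected replicate 1 correlated best with untransfected replicate 3 (0.309), so the numbers were not taken to pair the libraries. A planned ratio of PAX8 to PAX2 was not run because PAX8 was not analysed here. Depth is unknown from TPM, so counting error of low genes such as LHX1 could not be given.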
